A study of Mus musculus with 30 samples.

Results

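The genes described here are 42 that mark microglia and the wider myeloid lineage in mice, given as a fixed list of symbols from Spi1, Csf1r and Itgam to Cd68 and Aif1. All 42 were found among the 48820 gene rows of the deposited table. They were chosen by symbol and not by a threshold on a measured value. The list was drawn up with earlier results of these data known. They were followed in bulk RNA of hippocampus and frontal cortex at 6, 12 and 24 h after lipopolysaccharide (LPS, a bacterial cell wall product given subcutaneously at 0.5 mg/kg), with 4 libraries per tissue and time, and at 6 h after saline, with 3 libraries per tissue. The 30 libraries came from 16 wild-type adult male C57BL/6J mice, obtained at 8 to 12 weeks of age and housed singly. Every mouse, saline ones included, had been through a model of Gulf War Illness. It consisted of corticosterone (CORT) at 200 mg/L of drinking water, in 0.6% ethanol, for 7 days, 1 injection of the nerve agent surrogate diisopropyl fluorophosphate (DFP) at 4 mg/kg on day 8, and repeated weeks of CORT until 5 weeks had passed. The groups are therefore CORT+DFP+LPS at 6, 12 and 24 h and CORT+DFP+Saline at 6 h, and no mouse without CORT and DFP was measured here. Because saline was sampled at 6 h alone, LPS and the time since injection cannot be told apart at 12 h and 24 h. In bulk tissue, fewer cells of a type and less RNA per cell cannot be told apart either, nor can more cells and more RNA per cell.

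Microglia are the resident macrophages of the brain. The transcription factor PU.1, encoded by Spi1, sets up the myeloid programme together with Irf8, Runx1 and Ikzf1, and the receptor Csf1r carries the signal on which microglia depend for survival. On the surface they hold the integrin CD11b/CD18 (Itgam and Itgb2) and the phosphatase CD45 (Ptprc), and below it the kinases Lyn, Syk and Btk, adaptors such as Pik3ap1, Blnk and Lcp2, and phosphatases such as Inpp5d and Ptpn6 carry or restrain signals of immune receptors. Haematopoietic regulators of actin (Dock2, Nckap1l, Was, Rac2, Coro1a) move the cell, and lysosomal and lipid-handling proteins (Cd68, Ctss, Laptm5, Lpcat2) serve uptake and lipid mediators. Neutrophils, monocytes and the macrophages at the borders of the brain use most of these genes too, so none of them names 1 cell type.

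The libraries held between 16826882 and 33034295 counted reads. Before any result, 4 of the cortex libraries have to be named, because they resembled hippocampal libraries of another time than the one on their label. The mouse code in each label ties a cortex library to a hippocampal library, and over 10568 genes, members left out, the deviation of a cortex library from its tissue was compared with that of every hippocampal library of 12 h and 24 h. The cortex libraries labelled A258, A259, A274 and A275 matched their own mouse best, with r between 0.26 and 0.43. The cortex library labelled A260 (12 h) matched the 24 h hippocampus of A276 best, at r = 0.77 against -0.02 with its own mouse. The library labelled A276 (24 h) matched the 12 h hippocampus of A260 at 0.38, against -0.13 with its own. Likewise the library labelled A261 (12 h) matched A278 at 0.30, against 0.13 with its own mouse, and the library labelled A278 (24 h) matched A261 at 0.41, against -0.15. The 143 genes, members left out, that were higher at 24 h than at 12 h in hippocampus had a median deviation of 0.16 and 0.22 (log2) in cortex A260 and A261, and of -0.18 and -0.19 in cortex A276 and A278. For 217 genes that were lower at 24 h the deviations were -0.29 and -0.1 in A260 and A261, and 0.15 and 0.25 in A276 and A278. For comparison, cortex A258 and A259 (12 h) both stood at -0.19 for the 143 genes, and at 0.13 and 0.16 for the 217. Cortex A274 and A275 (24 h) stood at 0.19 and 0.15 for the 143 genes, and at -0.18 and -0.13 for the 217. A second comparison took deviations from the mean of each tissue and time and had candidates of the same label alone. There the hippocampal libraries of A260, A261, A276 and A278 each matched the cortex library of their own mouse best, at r = 0.246, 0.292, 0.126 and 0.174. In the same comparison A258 (r = 0.0913) and A275 (r = -0.0153) did not match their own mouse best, and 9 of all 14 mice with both tissues did. As no library of the other time could be picked, that comparison cannot decide which time the 4 libraries hold. Which time these 4 libraries hold was not settled, and no library was relabelled. All values keep the deposited labels. Cortex counts and fold changes of the 42 genes at 12 h or 24 h are given also without these 4 libraries, an alternative chosen after seeing the data, which leaves 2 cortex libraries at each of these times.

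**Figure D1:**
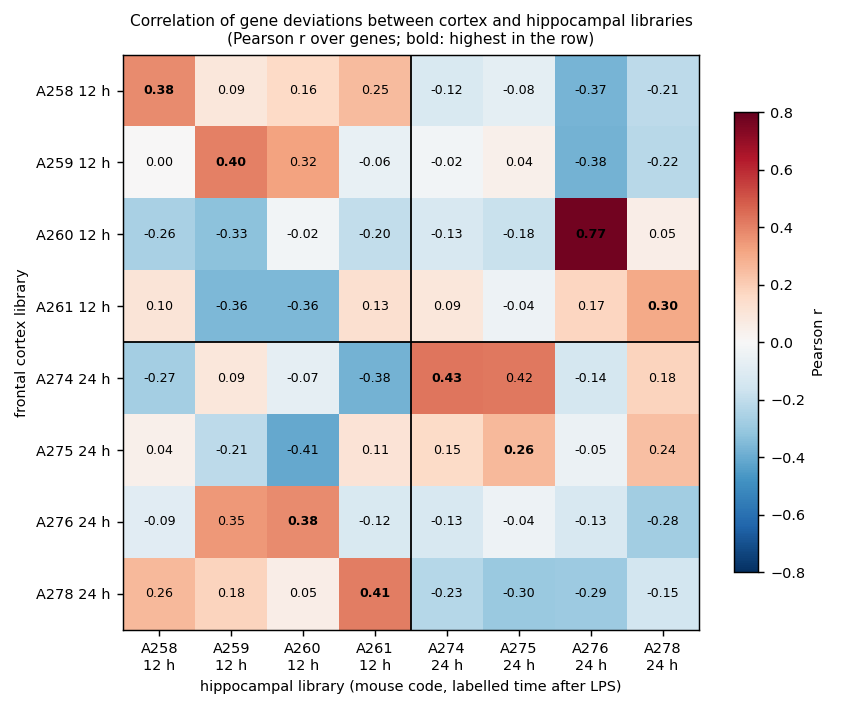
Correlation (Pearson r, colour and numbers) between the deviation of each cortex library of 12 h and 24 h (rows, by mouse code) and that of each hippocampal library (columns), over 10568 genes without the 42 members. Cortex A258, A259, A274 and A275 peak at their own mouse, and cortex A260, A261, A276 and A278 peak at a mouse of the other time.

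Hippocampus after LPS had more RNA of most myeloid genes, and more of them at each later time. At 6 h 14 of the 42 genes were higher than after saline and 1, Inpp5d, was lower (edgeR quasi-likelihood test, Benjamini-Hochberg adjusted p under 0.05 over 17289 genes), where 2.96% of all genes were called higher and 2.15% lower. At 12 h 29 were higher, against 6.07% of all genes, and at 24 h 39 were higher, against 6.76%. None was lower at either time, where 6.28% and 6.6% of all genes were. At an unadjusted p under 0.05 no member was lower at these times either, and DESeq2 called 0 lower at both. The median log2 fold change of the 42 was 0.38 at 6 h, 0.65 at 12 h and 0.97 at 24 h, while over all genes it stayed between -0.004 and 0.006. The change was uneven among the genes: at 24 h the lower and upper quartiles were 0.75 and 1.34, the lowest value was 0.01 (Coro1a) and the highest 2.66 (Itgam). Counted by library, every LPS library stood above every saline library for 16 genes at 6 h (7.8% of all genes), 30 at 12 h (10.1%) and 39 at 24 h (10.9%).

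**Figure D2:**
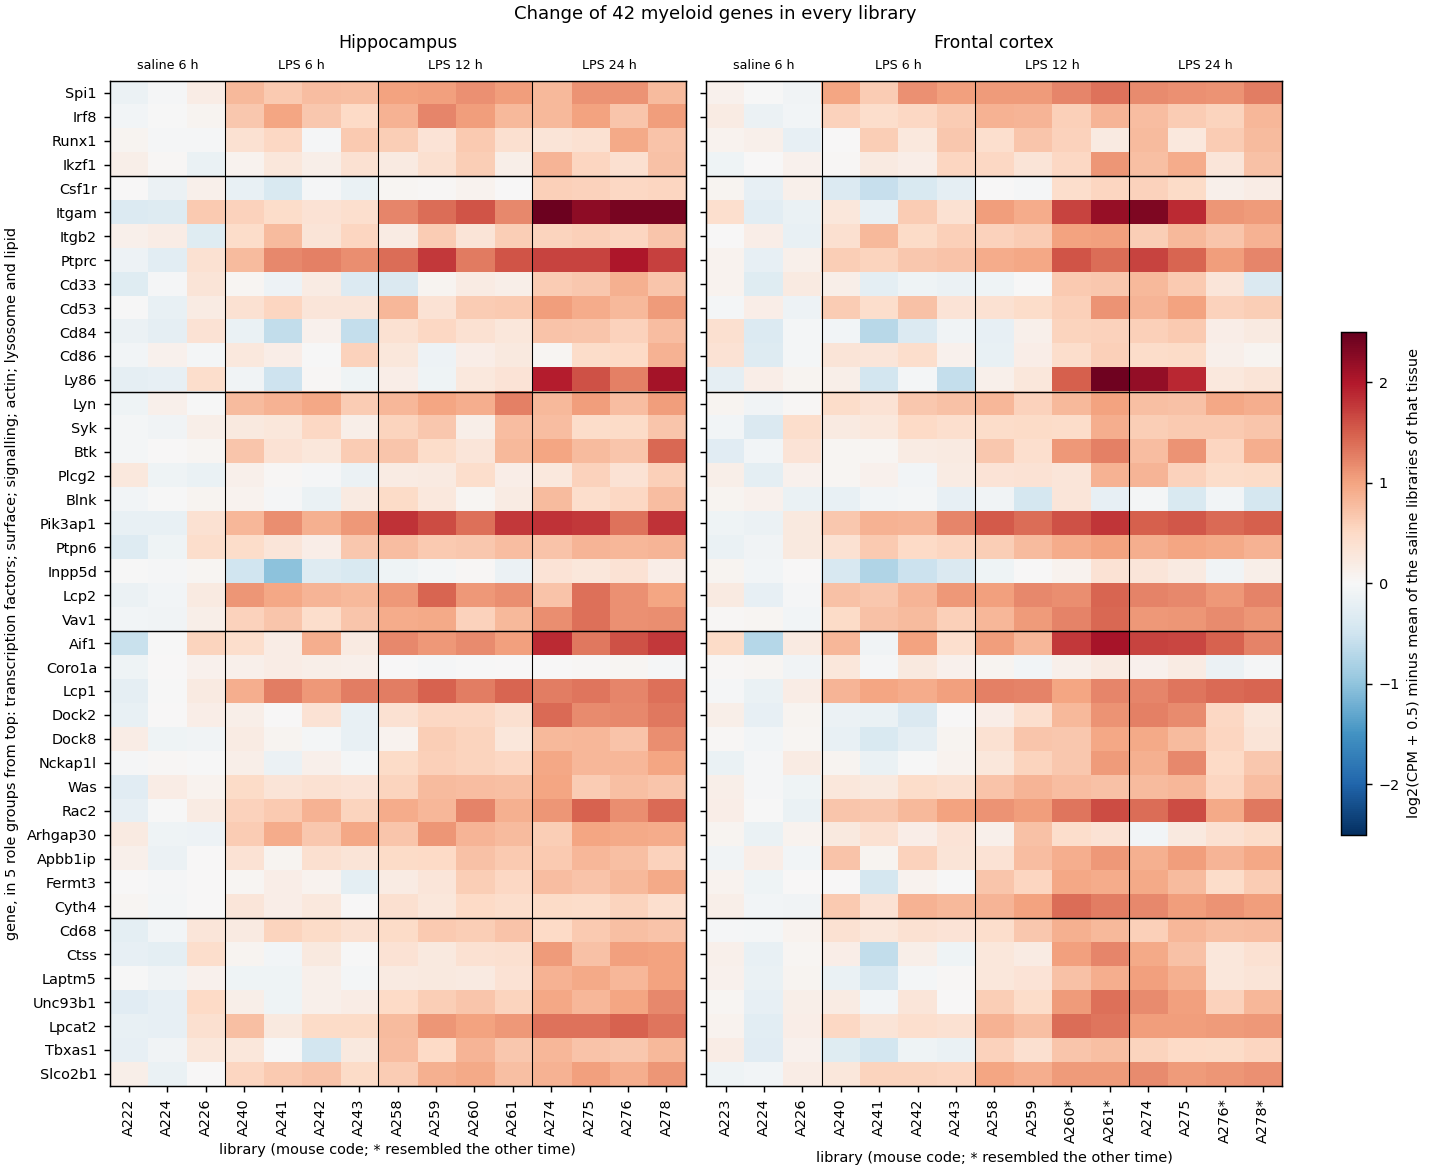
Change of each of the 42 genes (rows, in 5 role groups) in each library (columns, by mouse code), as log2(CPM + 0.5) minus the mean of the saline libraries of that tissue; red is higher, blue lower, and an asterisk marks the 4 cortex libraries that resembled the other time. In hippocampus the 24 h libraries are the reddest, Inpp5d is blue at 6 h, and Coro1a stays near white in all libraries.

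**Figure D3:**
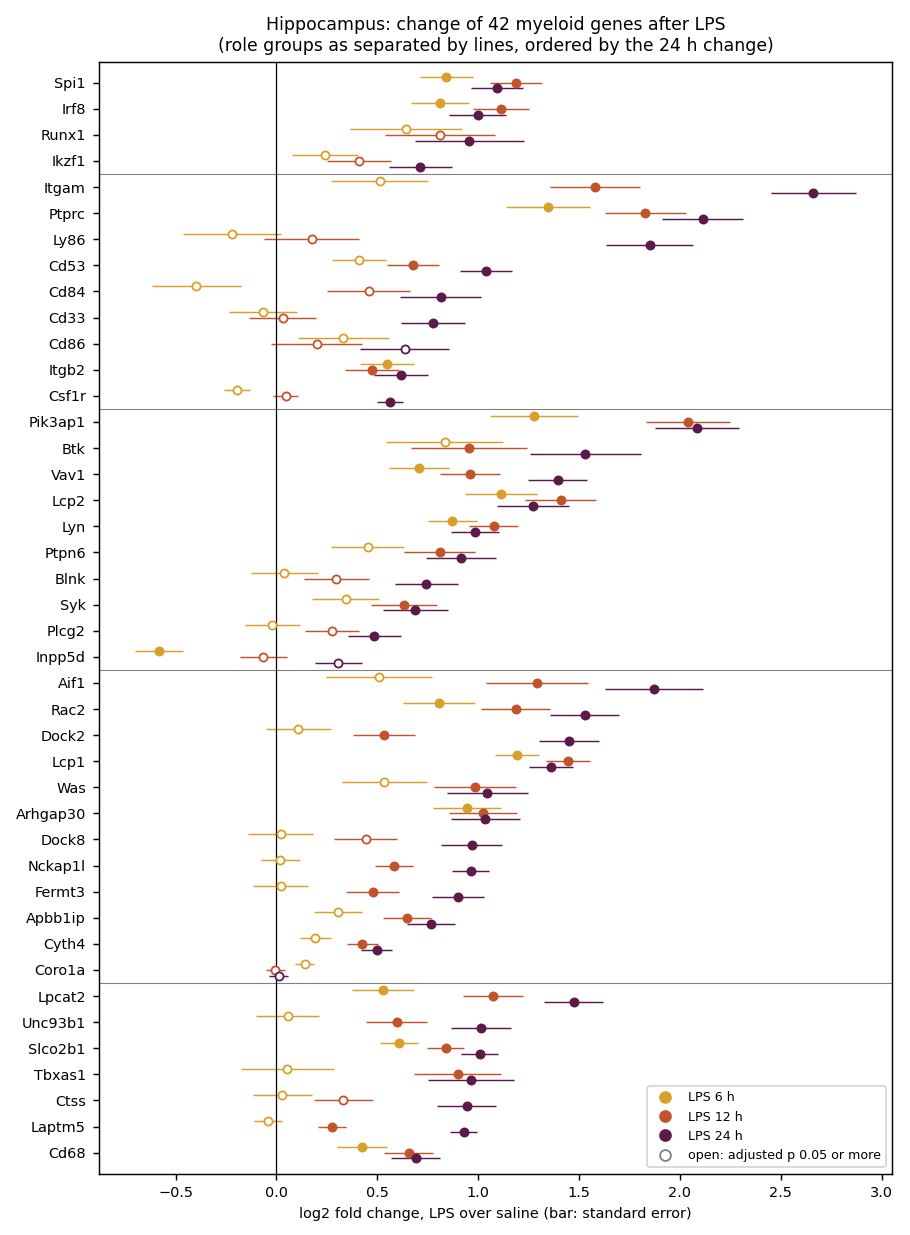
Log2 fold change of each gene in hippocampus at 6, 12 and 24 h after LPS over saline, with bars of 1 standard error and open symbols where the adjusted p is 0.05 or more (n = 4 LPS and 3 saline libraries). Itgam reaches 2.66 at 24 h and Coro1a stays between -0.01 and 0.14.

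All 4 transcription factors were called higher in hippocampus by 24 h, and 2 of them, Spi1 and Irf8, already at 6 h. Spi1 (chr2:91082390-91115756) had 5.37, 4.76, 5.19 and 5.12 CPM (counts scaled to the total of the library after TMM normalisation) in the 4 libraries of 6 h, 6.20, 6.33, 6.87 and 6.39 at 12 h and 5.33, 6.78, 6.77 and 5.29 at 24 h, against 2.52, 2.75 and 3.27 CPM after saline. Each LPS library stood above all 3 saline libraries, and the libraries of 24 h overlapped those of 6 h and of 12 h. The log2 fold change was 0.84 ± 0.13 (adjusted p = 0.000159) at 6 h, 1.19 at 12 h and 1.09 at 24 h. Irf8, a partner of PU.1, was higher by 0.81, 1.11 and 1.0 (log2) at the 3 times. Runx1, which acts early in the myeloid lineage and had the lowest level of all members per kilobase, was called at 24 h alone, at 0.96 ± 0.27 (adjusted p = 0.0178). The call was lost without saline A224 or A226 or LPS A276. Ikzf1, a zinc finger regulator of blood cells, had 3.01, 3.53, 3.17 and 3.86 CPM at 6 h, 3.37, 3.92, 4.60 and 3.20 at 12 h and 5.48, 4.36, 3.86 and 5.02 at 24 h, against 3.18, 2.89 and 2.46 CPM after saline. Its libraries overlapped saline at 6 h, and it was called at 24 h alone, at 0.71 ± 0.16 (adjusted p = 0.00286).

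Of the 9 surface receptors, 2 were higher at 6 h, 4 at 12 h and 8 at 24 h. Csf1r, the growth factor receptor of microglia, had 61.8, 53.8, 68.5 and 62.6 CPM at 6 h, 72.8, 71.1, 74.3 and 71.0 at 12 h and 106, 105, 101 and 102 at 24 h, against 70.5, 63.7 and 76.7 CPM after saline. The 6 h libraries overlapped saline on the low side, those of 12 h lay within the saline range, and those of 24 h were above every other library. Its log2 fold change was -0.20 ± 0.07 (adjusted p = 0.0896) at 6 h, 0.04 ± 0.06 (adjusted p = 0.741) at 12 h and 0.56 ± 0.06 (adjusted p = 1.36e-06) at 24 h. Itgam (CD11b; chr7:128062640-128118491) had 2.16, 1.95, 1.82 and 1.90 CPM at 6 h, 3.68, 4.22, 4.84 and 3.65 at 12 h and 9.33, 7.92, 8.77 and 8.84 at 24 h, against 0.909, 0.939 and 2.34 CPM after saline. At 6 h it overlapped saline through the high saline library of A226, and at 12 h and 24 h the libraries of each time lay above all earlier ones. The fold change was 0.51 ± 0.24 (adjusted p = 0.325) at 6 h, 1.58 ± 0.22 (adjusted p = 2.76e-05) at 12 h and 2.66 ± 0.21 (adjusted p = 8.87e-09) at 24 h. An annotated gene, Gm49368, shares exons with Itgam on the same strand, so part of these reads could belong to it.

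Ptprc (CD45; chr1:138062861-138175708) took the earlier course, with 2.55, 3.53, 3.74 and 3.43 CPM at 6 h, 4.15, 5.53, 3.84 and 4.75 at 12 h and 5.18, 5.17, 6.61 and 5.25 at 24 h, against 1.12, 0.974 and 1.79 CPM after saline. All LPS libraries were above all saline ones, and the fold change was 1.35 ± 0.21 (adjusted p = 0.000138), 1.83 and 2.11 (log2) at 6, 12 and 24 h. Itgb2 (CD18), the partner chain of Itgam, was higher at every time, by 0.55, 0.47 and 0.62, a smaller change than that of Itgam at 12 h and 24 h. That difference between genes was not tested. Its 6 h call was lost without saline A226 (adjusted p = 0.0806) and without LPS A241 (adjusted p = 0.0644), and its 12 h call without saline A226 (adjusted p = 0.124) or LPS A259 or A261. Ly86 (MD-1), which pairs with the Toll-like receptor relative RP105, was at -0.22 and 0.17 at 6 h and 12 h with no call and at 1.85 ± 0.22 (adjusted p = 2.04e-05) at 24 h. Cd53, a tetraspanin, was called from 12 h, and Cd33, a sialic acid receptor, at 24 h, at 1.04 and 0.78. Cd84, an adhesion receptor of the SLAM family, had 1.58, 1.02, 2.02 and 1.03 CPM at 6 h, 2.52, 2.81, 2.52 and 2.34 at 12 h and 3.31, 3.27, 2.99 and 3.5 at 24 h, against 1.61, 1.5 and 2.5 CPM after saline. The 6 h libraries reached below the saline range and the 24 h libraries lay above it, with fold changes of -0.40 ± 0.22 (adjusted p = 0.447) and 0.81 ± 0.20 (adjusted p = 0.00751). The 24 h call was lost without saline A224 (log2 0.67, adjusted p = 0.0634). Cd86, a costimulatory ligand for T cells, was not called at any time and stood at 0.64 ± 0.22 (adjusted p = 0.0588) at 24 h.

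Among the 10 signalling enzymes and adaptors, 4 were higher and 1 lower at 6 h, 7 were higher at 12 h and 9 at 24 h. Pik3ap1 (BCAP), an adaptor that brings PI3-kinase to immune receptors, had 2.20, 2.93, 2.33 and 2.72 CPM at 6 h, 4.84, 4.22, 3.44 and 4.71 at 12 h and 4.84, 4.69, 3.41 and 4.83 at 24 h, against 0.839, 0.835 and 1.48 CPM after saline. No LPS library overlapped saline, and the fold change was 1.28 ± 0.22 (adjusted p = 0.000444), 2.04 and 2.08 (log2) at the 3 times. Inpp5d (SHIP1; chr1:87620312-87720507), the lipid phosphatase that removes the product of PI3-kinase, had 6.34, 4.29, 7.26 and 6.97 CPM at 6 h, 8.47, 8.84, 9.43 and 8.32 at 12 h and 11.8, 11.3, 11.97 and 10.4 at 24 h, against 9.09, 9.01 and 9.51 CPM after saline. At 6 h all libraries were below saline, at 12 h they overlapped it, and at 24 h all were above it. It was called at 6 h, at -0.58 ± 0.12 (adjusted p = 0.00361), and not at 12 h, at -0.07 ± 0.12 (adjusted p = 0.802), or at 24 h, at 0.31 ± 0.12 (adjusted p = 0.0818). The Src-family kinase Lyn, the adaptor Lcp2 (SLP-76) and the exchange factor Vav1 were higher at all 3 times, at 0.87, 1.11 and 0.70 at 6 h and 0.98, 1.27 and 1.39 at 24 h. The kinases Syk and Btk and the phosphatase Ptpn6 (SHP-1) were called from 12 h. The 12 h call of Syk was lost without saline A224 (adjusted p = 0.0674). That of Btk was lost with the DESeq2 test (adjusted p = 0.0518) and without any saline library or LPS A258 or A261. Plcg2, a phospholipase, and Blnk, its adaptor, were called at 24 h alone, at 0.48 and 0.74. The call of Plcg2 was lost without saline A224 or A226 or LPS A278.

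The 12 genes of actin and small GTPase regulation gave 3 calls at 6 h, 10 at 12 h and 11 at 24 h, all higher. Aif1 (IBA1), the actin-binding protein used to stain microglia, had 2.16, 1.74, 3.17 and 1.80 CPM at 6 h, 4.0, 3.67, 3.96 and 3.48 at 12 h and 6.61, 4.41, 5.44 and 6.17 at 24 h, against 0.839, 1.46 and 2.38 CPM after saline. The saline and 6 h libraries overlapped over a wide range, and those of 12 h and 24 h lay above both. The fold change was 0.51 ± 0.27 (adjusted p = 0.407) at 6 h, 1.29 ± 0.25 (adjusted p = 0.00127) at 12 h and 1.87 ± 0.24 (adjusted p = 1.68e-05) at 24 h. Dock2, an activator of Rac, had 2.55, 2.25, 3.01 and 1.90 CPM at 6 h, 3.05, 3.42, 3.40 and 3.11 at 12 h and 6.86, 5.69, 5.78 and 6.31 at 24 h, against 1.92, 2.26 and 2.57 CPM after saline. The 24 h libraries stood clear of the rest, at 1.45 ± 0.15 (adjusted p = 2.65e-07), while the 12 h call, at 0.53, was lost without saline A222 or A224 or LPS A259. Lcp1 (plastin), Rac2 and Arhgap30 made up the calls of 6 h, at 1.19, 0.81 and 0.94. The call of Rac2 was lost without saline A222 (adjusted p = 0.0597). Coro1a (coronin 1A), which neurons express as well, had 108, 112, 109.7 and 107 CPM at 6 h, 98.8, 96.04, 98.1 and 99.6 at 12 h and 99.4, 100.1, 102 and 96.7 at 24 h, against 91.2, 99.4 and 106 CPM after saline. At 6 h all libraries lay above the saline range by a small margin, and at 12 h and 24 h they overlapped it. It was not called at any time, at 0.14 ± 0.05 (adjusted p = 0.088) at 6 h and 0.01 ± 0.05 (adjusted p = 0.915) at 24 h. It was also the member with the highest level after saline per kilobase of exon, 35.5 ± 2.63 CPM per kb (SD, n = 3), ahead of the protease gene Ctss at 27.1 ± 7.62, Csf1r at 12.2 ± 1.13 and Laptm5 at 8.11 ± 0.578. Coro1a and Ctss did not differ beyond their spread. Ptprc (0.0707 ± 0.0239) and Runx1 (0.054 ± 0.00358) came last and also lay within each other's spread.

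All 7 genes of the lysosome, endosome and lipid group were higher at 24 h, after 3 at 6 h and 6 at 12 h. Cd68, the lysosomal glycoprotein used as a phagocyte marker, had 6.88, 8.71, 8.20 and 7.73 CPM at 6 h, 8.20, 9.44, 9.11 and 9.83 at 12 h and 8.39, 9.43, 10.02 and 9.76 at 24 h, against 4.83, 5.50 and 7.25 CPM after saline. The 6 h libraries overlapped saline through 1 library, A240, and the later ones did not overlap it. The fold change was 0.42 ± 0.12 (adjusted p = 0.0462) at 6 h, a call that leaving out any of 5 libraries ended, and 0.66 and 0.69 at 12 h and 24 h. Laptm5, a lysosomal membrane protein that restrains immune receptors, had 28.6, 28.3, 33.3 and 29.8 CPM at 6 h, 35.9, 36.4, 35.9 and 39.7 at 12 h and 56.4, 59.6, 55.2 and 62.3 at 24 h, against 30.4, 28.7 and 33.0 CPM after saline. It overlapped saline at 6 h and lay above it at 12 h and, further, at 24 h, where the change was 0.93 ± 0.07 (adjusted p = 1.73e-09). Its 12 h call, at 0.28, was lost without saline A224 (adjusted p = 0.084). Lpcat2, an enzyme of phospholipid remodelling that makes platelet-activating factor, had 6.76, 4.63, 5.55 and 5.55 CPM at 6 h, 6.94, 8.74, 8.23 and 8.69 at 12 h and 10.7, 10.5, 11.6 and 10.5 at 24 h, against 3.29, 3.24 and 5.22 CPM after saline. It was higher at 24 h by 1.47 ± 0.14 (adjusted p = 1.67e-07), with all 24 h libraries above all saline ones. Its 6 h call, at 0.53, was lost when any of 5 libraries was left out. Tbxas1 (thromboxane synthase) had 1.62, 1.23, 0.778 and 1.58 CPM at 6 h, 2.47, 1.96, 2.64 and 2.29 at 12 h and 2.62, 2.37, 2.29 and 2.58 at 24 h, against 1.01, 1.15 and 1.64 CPM after saline. It was called from 12 h, at 0.90, and stood at 0.96 at 24 h. The transporter Slco2b1 was higher at all times and stood at 1.01 at 24 h. The Toll-like receptor chaperone Unc93b1 was called from 12 h, at 1.01 at 24 h. Its 12 h call was lost without saline A222 or A224 and in a fit of these groups alone. Ctss (cathepsin S) was called at 24 h alone, at 0.94.

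Set side by side, the hippocampal courses ran over a range from early to late, and the limits used here to part them were chosen. Of the 39 genes called at 24 h, 17 had at least 50% of their 24 h log2 change at 6 h, 15 had under 25% and 7 lay between. Among the 17, Runx1, Syk, Btk and Was were not called at 6 h. The early ones were led by Arhgap30 (91%), Lyn and Itgb2 (89% each), Lcp1 (88%), Lcp2 (87%), Irf8 (81%) and Spi1 (77%). Among the late ones, Itgam had 19%, Dock2 7%, Ctss 3%, Laptm5 -4%, Ly86 -12% and Csf1r -35%. These shares compare fold changes that use the same saline libraries and carry no test. Between LPS times, which share no saline library, 9 genes were higher at 12 h than at 6 h, against 1.14% of all genes: Csf1r, Itgam, Cd84, Pik3ap1, Inpp5d, Nckap1l, Laptm5, Lpcat2 and Tbxas1. The number fell to 5 without 6 h library A240 or 12 h library A261 and to 4 without 6 h library A241. Another 9 were higher at 24 h than at 12 h, against 0.885%: Csf1r (0.52), Itgam (1.08), Cd33, Ly86 (1.67), Dock2, Dock8, Nckap1l, Ctss and Laptm5 (0.65). None was lower in either step, where 1% and 1.26% of all genes were. At an unadjusted p under 0.05 it was 1 member in the first step and 0 in the second, and DESeq2 called 1 and 0.

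Ratios of 2 genes within a library need no scaling between libraries and show whether the genes changed by the same factor. Per 100 Csf1r counts in hippocampus, Spi1 had 7.58 to 8.85 counts at 6 h, 8.53 to 9.25 at 12 h and 5.0 to 6.72 at 24 h, against 3.57 to 4.32 after saline. The ratio was above saline at every time, with no overlap, and the 24 h libraries lay below those of 6 h and 12 h. Ptprc had 4.13 to 6.56 at 6 h, 5.16 to 7.77 at 12 h and 4.87 to 6.55 at 24 h, against 1.53 to 2.34 after saline. Itgam had 2.65 to 3.64, 5.06 to 6.51 and 7.53 to 8.76 at 6, 12 and 24 h, against 1.29 to 3.05 after saline, so it overlapped saline at 6 h and lay above it from 12 h. Inpp5d went the other way, with 7.98 to 11.1 at 6 h, 11.6 to 12.7 at 12 h and 10.2 to 11.9 at 24 h, against 12.4 to 14.2 after saline. These libraries overlapped saline at 12 h and lay below it at 6 h and 24 h. In frontal cortex Spi1 had 11 to 14 counts per 100 of Csf1r at 6 h, against 3.81 to 5.11 after saline, and Inpp5d 13.6 to 15.1, against 14.7 to 17.3, with an overlap for Inpp5d. Cortex Spi1 had 8.45 to 10.4 at 12 h and 7.32 to 10.4 at 24 h with all labels kept, above saline at both. Without the 4 libraries it had 10.1 to 10.4 and 7.32 to 7.63. Cortex Inpp5d had 12.5 to 16.2 and 13.1 to 15.6 with all labels kept, overlapping saline, and 14.6 to 16.2 and 13.1 to 13.3 without the 4. The ratio shows unequal change, and neither gene of a pair is thereby fixed.

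**Figure D4:**
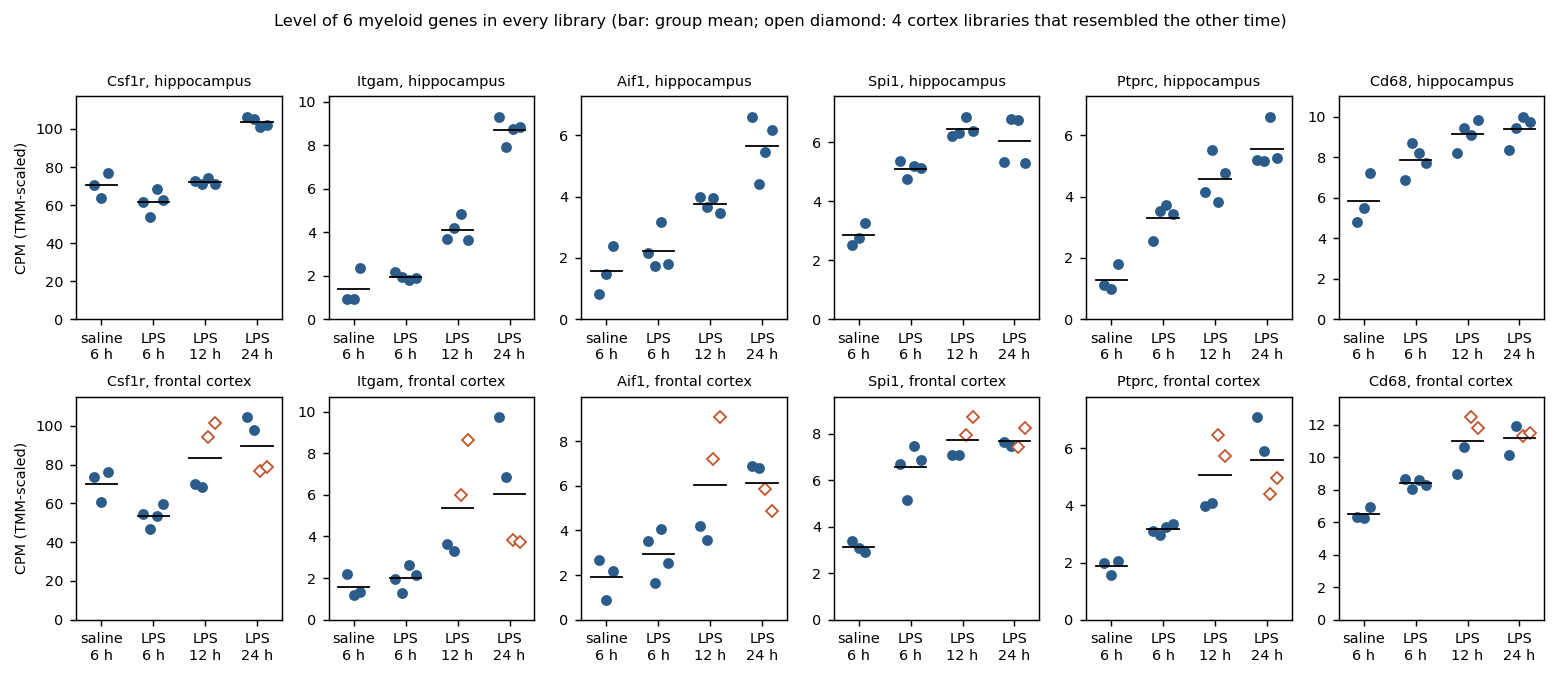
Level (CPM) of Csf1r, Itgam, Aif1, Spi1, Ptprc and Cd68 in every library of hippocampus and frontal cortex, from saline at 6 h to 24 h after LPS; each point is a library, bars are group means, and open points are the 4 cortex libraries that resembled the other time. Spi1 and Ptprc are already high at 6 h, Csf1r is not, and Itgam climbs to between 7.92 and 9.33 CPM in hippocampus at 24 h.

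Markers of other cells moved as well, and the lists of cells known to use many of the 42 genes are given here as measured values. Of 10 neutrophil genes, 6 were measured well enough to test in hippocampus and 5 were higher at each time, with S100a8 at 5.60 and S100a9 at 6.02 (log2) at 6 h and Retnlg at 0 in all saline libraries, so that no fold is given for it. Their summed level was 13.3 to 15.1 CPM at 6 h, 8.94 to 14.3 at 12 h and 8.39 to 15.2 at 24 h, against 4.64 to 4.93 CPM after saline. Ly6g, the defining marker, was at 0 in all libraries of 6 h and of saline. Of 8 blood monocyte genes, 4 were tested, and Chil3 (3.53) and Fn1 (0.92) were higher and Vcan was lower at 6 h. Their summed level was 74.2 to 83.9 CPM at 6 h, 104 to 173 at 12 h and 86.0 to 101 at 24 h, against 45.0 to 59.5 CPM after saline, with no gene of the list at 0 after LPS and Plac8 at 0 after saline. Of 8 border macrophage genes, 5 were tested, none was called at 6 h by edgeR (2 were lower at an unadjusted p under 0.05), and at 24 h Mrc1 was higher (1.38) and Cd163 lower (-0.80). The sum was 5.39 to 7.89 CPM at 6 h, 4.57 to 7.38 at 12 h and 6.36 to 7.39 at 24 h, against 4.73 to 7.48 CPM after saline. Of 10 T and NK cell genes 1 could be tested and was not called, and the sum was 1.06 to 2.18 CPM after LPS against 1.08 to 1.64 CPM after saline. Cd3e was at 0 in all hippocampal libraries. A set of 12 members, listed by hand as shared with neutrophils and lymphocytes (among them Ptprc, Itgam, Itgb2, Lcp1, Rac2 and Coro1a), was left out. The median of the other 30 was then 0.32 at 6 h, 0.64 at 12 h and 0.96 at 24 h, and 8, 19 and 28 of the 30 were called higher. As neutrophils and monocytes use most of the 42 genes, this split cannot separate the part of those cells. The part of these cells in the changes of the 42 genes was not tested.

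The 14 genes of homeostatic microglia, which adult microglia express at rest and which are not among the 42, were described in the same way. In hippocampus edgeR called none higher at 6 h (1 at an unadjusted p under 0.05) and 2 lower (7 at an unadjusted p under 0.05; Selplg at -1.08 and Tgfbr1 at -0.29), 4 were higher and 1 lower at 12 h, and 11 were higher and 1 lower at 24 h. Their median log2 fold change was -0.24 at 6 h, 0.08 at 12 h and 1.06 at 24 h, and the summed level was 572 to 604 CPM at 6 h, 608 to 635 at 12 h and 702 to 733 at 24 h, against 583 to 600.2 CPM after saline. A sum is carried mostly by the most abundant genes of a list, while the median weighs all alike. The smaller rise of the sum at 24 h is therefore not the change of a typical gene of the list. At 24 h Fcrls (2.97), Olfml3 (1.83) and the purine receptor P2ry12 (1.30) were among those higher, and Sparc was the 1 lower. Of 10 genes of cell division 5 were tested in hippocampus; edgeR called none at 6 h or 12 h (0 and 1 at an unadjusted p under 0.05), and 3 were higher at 24 h (Top2a 2.96, Mki67 1.60, Mcm5 0.90). Their summed level was 7.32 to 8.46 CPM at 6 h, 7.83 to 10.5 at 12 h and 11.8 to 22.8 at 24 h, against 7.76 to 8.42 CPM after saline. Which cells these transcripts came from was not measured in bulk tissue.

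The start sites of the genes were searched for the sequence that PU.1 is known to bind, GAGGAA on either strand, as a description of the promoters and not of binding. RefSeq promoters of build GRCm38.p6 (250 bases before to 50 after the start) were at hand for 34 of the 42 genes, and Spi1, Csf1r, Itgb2, Lyn, Rac2, Cd86, Nckap1l and Unc93b1 had no entry. GAGGAA was present in 22 of the 34 (64.7%), against 31.3% of 27025 genes with a promoter. A composite ETS and IRF element was present in 2 of the 34 (5.9%, against 3.2% of all genes), Cd68 and Lpcat2, and an interferon-stimulated response element in 2 (5.9%, against 4.0%), Aif1 and Ctss. In Cd68 the composite element overlapped GAGGAA. Counted over single windows, since a gene can have several starts, GAGGAA was present in 24 of 43 windows of these genes (55.8%), against 28.3% of 32851 windows. Shown are 4 promoters, chosen after the values were seen, those of the gene with the highest change (Itgam), of an early and a late riser (Pik3ap1 and Laptm5) and of the 1 gene that was lower at 6 h (Inpp5d). They are written 5′ to 3′ on the strand of the gene, with GAGGAA, or TTCCTC where it lies on the other strand, in capitals.
Itgam, chr7:128062390-128062689, plus strand: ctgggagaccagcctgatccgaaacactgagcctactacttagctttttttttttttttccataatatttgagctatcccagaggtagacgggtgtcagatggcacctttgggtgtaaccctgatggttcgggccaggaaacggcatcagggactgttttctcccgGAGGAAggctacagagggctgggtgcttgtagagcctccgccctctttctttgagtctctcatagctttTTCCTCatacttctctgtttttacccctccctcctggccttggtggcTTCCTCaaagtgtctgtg
Pik3ap1, chr19:41385053-41385352, minus strand: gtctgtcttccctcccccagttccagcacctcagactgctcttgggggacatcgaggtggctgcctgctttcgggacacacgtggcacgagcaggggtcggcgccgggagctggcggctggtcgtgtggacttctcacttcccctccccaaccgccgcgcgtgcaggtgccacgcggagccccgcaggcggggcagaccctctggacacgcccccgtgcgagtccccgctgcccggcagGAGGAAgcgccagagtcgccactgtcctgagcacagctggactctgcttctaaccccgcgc
Inpp5d, chr1:87620062-87620361, plus strand: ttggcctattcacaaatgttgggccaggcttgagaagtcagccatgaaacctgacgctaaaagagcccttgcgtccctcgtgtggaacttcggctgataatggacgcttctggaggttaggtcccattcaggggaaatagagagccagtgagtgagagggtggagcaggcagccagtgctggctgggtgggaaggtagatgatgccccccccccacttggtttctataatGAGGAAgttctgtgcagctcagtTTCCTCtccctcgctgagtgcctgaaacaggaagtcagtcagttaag
Laptm5, chr4:130913066-130913365, plus strand: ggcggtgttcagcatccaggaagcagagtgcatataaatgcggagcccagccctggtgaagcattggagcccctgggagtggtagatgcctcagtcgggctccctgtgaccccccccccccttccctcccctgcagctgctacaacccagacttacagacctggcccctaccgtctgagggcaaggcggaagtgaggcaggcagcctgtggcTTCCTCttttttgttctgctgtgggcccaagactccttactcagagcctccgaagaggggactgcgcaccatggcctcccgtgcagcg
The Itgam window holds 3 matches, that of Inpp5d 2, and those of Pik3ap1 and Laptm5 1 each. Among the 4 shown, the letters are thus shared by genes with an early rise, a late rise and a fall at 6 h. No match was found for other early genes (Arhgap30, Irf8 and Lcp1) or late ones (Ly86 and Dock8).

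In frontal cortex the same set was mostly higher as well. At 6 h 12 genes were higher and Inpp5d was lower, where 2.3% and 1.2% of 17111 genes were called. 7 were higher without saline A226. With all libraries 27 were higher at 12 h (4.13% of all genes) and 30 at 24 h (3.73%), and none was lower, where 2.99% and 2.38% were. DESeq2 called 0 lower at both times, and at an unadjusted p under 0.05 it was 0 as well. Without the 4 libraries 19 were higher at 12 h (2.69%) and 33 at 24 h (3.29%), and by edgeR none was lower, nor at an unadjusted p under 0.05, where 1.59% and 2.23% of all genes were called. Counted by library with all labels kept, every LPS library stood above every saline library for 18 genes at 6 h (9.06% of all genes), 34 at 12 h (9.57%) and 35 at 24 h (9.64%). Without the 4 libraries it was 34 (15%) and 40 (17.1%). Every LPS library stood below for 2 genes at 6 h (7.7%) and for none at 12 h (8.22%) or 24 h (8.16%). The median log2 fold change was 0.36 at 6 h, 0.86 at 12 h and 0.88 at 24 h, and 0.62 and 0.97 at 12 h and 24 h without the 4 libraries. By role, 2 transcription factors, 1 surface receptor, 5 signalling genes, 3 actin genes and 1 lysosomal gene were higher at 6 h. At 24 h without the 4 libraries these numbers were 3 of 4, 7 of 9, 7 of 10, 10 of 12 and 6 of 7, in the same order.

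**Figure D5:**
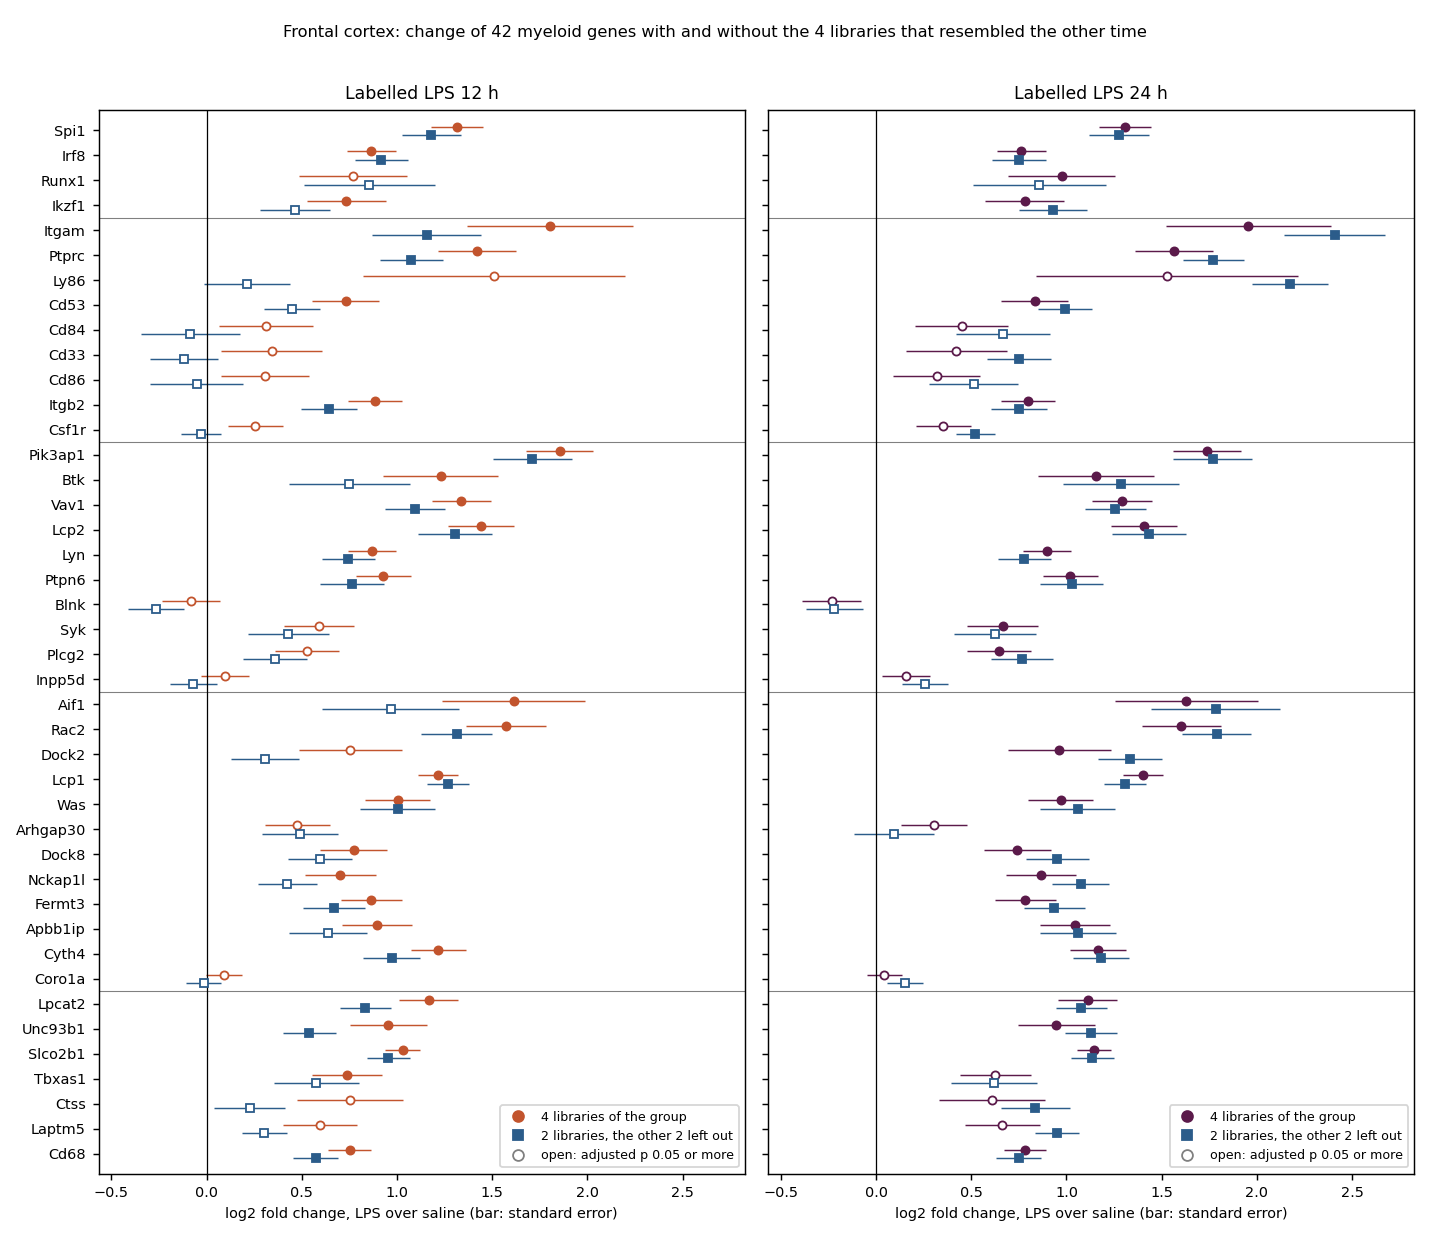
Log2 fold change of each gene in frontal cortex over saline, for the groups labelled LPS 12 h (left) and LPS 24 h (right), with all 4 libraries of the group (circles) and with the 2 that remain when those resembling the other time are left out (squares); bars are 1 standard error and open symbols have an adjusted p of 0.05 or more. At 12 h most squares lie left of their circles (medians 0.62 and 0.86), and at 24 h Itgam and Ly86 lie right of theirs (2.41 and 2.17 without the 4 libraries).

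Single cortex genes show where the 4 libraries matter. Spi1 had 6.70, 5.13, 7.48 and 6.87 CPM at 6 h, 7.08, 7.10, 7.96 and 8.71 at 12 h and 7.66, 7.47, 7.43 and 8.22 at 24 h, against 3.38, 3.10 and 2.90 CPM after saline. All LPS libraries were above saline, whichever label they carried, with a fold change of 1.09 ± 0.14 (adjusted p = 0.000116) at 6 h and of 1.31 at 24 h (1.27 without the 4). Ptprc had 3.11, 2.96, 3.23 and 3.34 CPM at 6 h, 3.96, 4.07, 6.48 and 5.71 at 12 h and 7.09, 5.91, 4.39 and 4.96 at 24 h, against 1.99, 1.55 and 2.06 CPM after saline. Its 6 h value, 0.75 ± 0.21 (adjusted p = 0.0581), did not pass the threshold although every 6 h library was above saline. At 24 h it was higher by 1.56 ± 0.20 (adjusted p = 6.56e-05), or 1.77 ± 0.16 (adjusted p = 1.47e-05) without the 4.

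Csf1r had 54.8, 46.7, 53.6 and 59.5 CPM at 6 h, 69.9, 68.6, 94.3 and 102 at 12 h (the last 2 from the libraries labelled A260 and A261) and 105, 97.9, 76.6 and 79.1 at 24 h (the last 2 from those labelled A276 and A278), against 73.5, 60.6 and 76.1 CPM after saline. All 6 h libraries were below all saline libraries, A258 and A259 lay within the saline range, and A274 and A275 at 24 h were near the libraries labelled A260 and A261. The change was -0.38 ± 0.14 (adjusted p = 0.179) at 6 h and 0.35 ± 0.14 (adjusted p = 0.206) at 24 h, and 0.52 ± 0.10 (adjusted p = 0.00706) at 24 h without the 4 libraries, where it was called. Itgam had 1.95, 1.27, 2.63 and 2.14 CPM at 6 h, 3.64, 3.31, 5.98 and 8.63 at 12 h and 9.74, 6.84, 3.85 and 3.72 at 24 h, against 2.19, 1.19 and 1.31 CPM after saline. The libraries labelled A260 and A261 were above A258 and A259, and those labelled A276 and A278 were below A274 and A275. The 24 h change was 1.96 ± 0.43 (adjusted p = 0.0134), lost without saline A224 (adjusted p = 0.0634) or A226 (adjusted p = 0.0967), and 2.41 ± 0.27 (adjusted p = 7.56e-05) without the 4 libraries. Aif1 had 3.53, 1.64, 4.06 and 2.55 CPM at 6 h, 4.21, 3.55, 7.22 and 9.08 at 12 h and 6.90, 6.79, 5.86 and 4.87 at 24 h, against 2.68, 0.893 and 2.18 CPM after saline. It overlapped saline at 6 h and lay above it at 12 h and 24 h. Its change was 1.63 ± 0.38 (adjusted p = 0.0153) at 24 h and 1.78 ± 0.34 (adjusted p = 0.00731) without the 4, and the call with all libraries was lost without saline A224 (adjusted p = 0.0571) or A226 (adjusted p = 0.064).

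Inpp5d had 8.28, 6.35, 7.53 and 8.5 CPM at 6 h, 10.2, 11.1, 11.8 and 14.3 at 12 h and 13.7, 12.99, 10.4 and 12.4 at 24 h, against 11.6, 10.5 and 11.2 CPM after saline. All 6 h libraries were below saline, at -0.52 ± 0.13 (adjusted p = 0.0269), a call that was lost without any of the 3 saline libraries or LPS A242, with values between -0.55 and -0.49. It was not called at 24 h, at 0.16 ± 0.12 (adjusted p = 0.621), nor without the 4 libraries, at 0.26 ± 0.12 (adjusted p = 0.308). Cd68 had 8.65, 8.05, 8.59 and 8.31 CPM at 6 h, 8.98, 10.6, 12.5 and 11.8 at 12 h and 10.1, 11.9, 11.3 and 11.5 at 24 h, against 6.31, 6.25 and 6.91 CPM after saline. Every LPS library was above saline. It was not called at 6 h, at 0.38 ± 0.11 (adjusted p = 0.081), and was called from 12 h, at 0.78 ± 0.11 (adjusted p = 0.000177) at 24 h and 0.75 ± 0.12 (adjusted p = 0.00137) without the 4 libraries. Coro1a had 139.7, 113, 137 and 124 CPM at 6 h, 119.8, 109, 125 and 134 at 12 h and 124, 133, 104 and 113 at 24 h, against 117, 119 and 108 CPM after saline. It overlapped saline at every time and was not called, at 0.17, 0.09 and 0.04 (log2), and -0.01 and 0.15 at 12 h and 24 h without the 4 libraries.

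Further genes differed in whether they cleared the saline range at 6 h. Pik3ap1 had 2.48, 2.91, 2.86 and 3.85 CPM at 6 h, 4.93, 4.45, 5.14 and 5.96 at 12 h and 4.78, 4.98, 4.48 and 4.73 at 24 h, against 1.24, 1.19 and 1.71 CPM after saline, with no overlap and 1.74 ± 0.18 (adjusted p = 4.27e-06) at 24 h, or 1.77 ± 0.21 (adjusted p = 0.000133) without the 4 libraries. Lpcat2 had 7.12, 6.14, 6.6 and 6.36 CPM at 6 h, 9.18, 8.38, 13.5 and 12.8 at 12 h and 10.4, 10.4, 10.6 and 10.8 at 24 h, against 5.17, 3.93 and 5.42 CPM after saline, with no overlap either, and was higher at 24 h by 1.11 ± 0.15 (adjusted p = 0.000138), or by 1.08 ± 0.13 (adjusted p = 0.000231) without the 4. Laptm5 had 27.6, 23.2, 29.7 and 31.8 CPM at 6 h, 37.8, 39.6, 52.0 and 58.4 at 12 h and 63.5, 57.4, 37.6 and 38.6 at 24 h, against 33.3, 27.4 and 32.5 CPM after saline. It overlapped saline at 6 h and lay above it later. It was not called at 24 h with all libraries, at 0.66 ± 0.20 (adjusted p = 0.0652), and was called without the 4, at 0.95 ± 0.12 (adjusted p = 0.000174). Dock2 had 2.32, 2.28, 1.94 and 2.65 CPM at 6 h, 2.99, 3.65, 4.95 and 6.28 at 12 h and 6.95, 6.55, 3.94 and 3.31 at 24 h, against 2.93, 2.20 and 2.77 CPM after saline. The overlap with saline was limited to 6 h. Its 24 h call, 0.96 ± 0.27 (adjusted p = 0.0402), was lost when any saline library or LPS A274 or A275 was left out, without a filter on low counts, and in a fit of these groups alone. Without the 4 libraries it was 1.33 ± 0.17 (adjusted p = 0.000238). Cd84 had 2.58, 1.48, 2.03 and 2.51 CPM at 6 h, 2.31, 3.03, 4.25 and 4.29 at 12 h and 4.35, 4.59, 3.09 and 3.26 at 24 h, against 3.73, 2.02 and 2.62 CPM after saline. Some libraries of each time overlapped saline, and it was not called, at 0.45 ± 0.24 (adjusted p = 0.393) at 24 h and 0.67 ± 0.24 (adjusted p = 0.165) without the 4 libraries.

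Ikzf1 had 2.85, 3.33, 3.19 and 4.27 CPM at 6 h, 4.21, 3.60, 4.20 and 6.56 at 12 h and 5.01, 5.76, 3.58 and 4.96 at 24 h, against 2.53, 2.80 and 3.05 CPM after saline. Only its 6 h libraries overlapped saline. Its 24 h value was 0.78 ± 0.21 (adjusted p = 0.0289), and the call was lost when any saline library or LPS A274, A275 or A278 was left out. Without the 4 libraries it was 0.93 ± 0.18 (adjusted p = 0.00588). Tbxas1 had 1.05, 0.900, 1.29 and 1.21 CPM at 6 h, 2.35, 2.04, 2.62 and 2.71 at 12 h and 2.32, 2.20, 2.19 and 2.30 at 24 h, against 1.69, 1.07 and 1.56 CPM after saline. The 6 h libraries overlapped saline and the later ones lay above it. It was called at 12 h, at 0.74 ± 0.18 (adjusted p = 0.016), and not without the 4 libraries, at 0.58 ± 0.22 (adjusted p = 0.235). The call was also lost without saline A224 or A226 or LPS A261. Between LPS times, 10 genes were higher at 12 h than at 6 h with all libraries (0.614% of all genes) and none without the 4. By edgeR none was higher at 24 h than at 12 h with all libraries, where 0% of all genes were called. At an unadjusted p under 0.05 it was 1 member in that step, and DESeq2 called none. No gene had all its 24 h libraries above all its 12 h libraries (0.491% of all genes did). Without the 4 libraries 2 were called higher at 24 h than at 12 h, Ly86 and Dock2, against 0.0932% of all genes.

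In frontal cortex the same marker lists gave the following values. List calls at 12 h and 24 h used all libraries with their deposited labels and were not recomputed without the 4. Only the sums are given both ways, and each is carried mostly by the most abundant genes of its list. The numbers of calls can therefore not be set against those of hippocampus as a difference between tissues. Of 10 neutrophil genes 8 were tested, and 6, 7 and 4 were higher at 6, 12 and 24 h. Their sum was 21.7 to 28.0 CPM at 6 h and 12.2 to 21.2 CPM over the 8 libraries of 12 h and 24 h (12.2 to 16.7 without the 4), against 4.47 to 5.91 CPM after saline. Ly6g was at 0 after saline alone. Blood monocyte genes gave 3, 4 and 4 higher calls of 6 tested at the 3 times. The sum was 72.2 to 95.7 CPM at 6 h and 78.1 to 133 CPM later (84.1 to 126 without the 4), against 44.8 to 65.7 CPM after saline, with Plac8 at 0 after saline. Border macrophage genes gave 2 lower calls of 7 tested at 6 h (Cd163 and Lyve1), and at 12 h and 24 h these and F13a1 were lower and Ms4a7 was higher. The sum was 10.5 to 11.7 CPM at 6 h and 8.37 to 12.4 CPM later, with the same limits without the 4, against 14.3 to 16.0 CPM after saline. Of 10 T and NK cell genes 2 were tested and edgeR called none at any time, nor was any at an unadjusted p under 0.05. The sum was 2.17 to 4.92 CPM after LPS (up to 4.11 without the 4) against 2.15 to 9.11 CPM after saline. Of 14 homeostatic microglia genes edgeR called none higher (0 at an unadjusted p under 0.05) and 1 lower (Tgfbr1; 4 at an unadjusted p under 0.05) at 6 h, and 2 and 3 higher at 12 h and 24 h. Their sum was 433 to 579.9 CPM at 6 h and 497 to 773 CPM later (497 to 680.0 without the 4), against 484 to 524 CPM after saline. Of 10 genes of cell division 7 were tested and edgeR called none at any time, with 1 higher at an unadjusted p under 0.05 at each, and the sum was 10.4 to 18.3 CPM after LPS, with the same limits without the 4, against 10.4 to 11.3 CPM after saline. Their part in the cortex result was not tested.

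The tissues were then compared directly, in a fit of all 30 libraries that had no block for the mouse. After saline, 1 gene was higher in hippocampus than in frontal cortex, Cyth4 (log2 1.20), and 3 were lower, Blnk (-2.05), Arhgap30 (-0.72) and Coro1a (-0.21), where 19.9% and 17.2% of 17650 genes were called. The number of lower genes was 10 without hippocampal saline A226 and 5 without cortex saline A224. A test of the difference between the responses of the tissues gave no call among the 42 at 6 h or 24 h, where it called 0% and 0% of all genes higher and lower at 6 h and 0.068% and 0.0567% at 24 h. At an unadjusted p under 0.05 it was 2 members at 6 h and 3 at 24 h, and DESeq2 called 0 at 6 h and 2 at 24 h. Without the 4 cortex libraries edgeR called none at 12 h or 24 h, and 4 and 3 had an unadjusted p under 0.05. At 12 h 1 gene was called, Cyth4 (cytohesin 4, an exchange factor for ARF proteins), whose response was smaller in hippocampus than in cortex by a log2 difference of -0.79 ± 0.16 (adjusted p = 0.0427; 0.0567% of all genes were called in that direction and 0.0397% in the other). Without the 4 cortex libraries the difference was -0.55 (adjusted p = 0.33), and with the mouse as a fixed replicate block it was not called; with the mouse as a random replicate block it was, at -0.78 (adjusted p = 0.0295). The call was kept without cortex A258, cortex A259 or hippocampal A260 (-0.85 to -0.79) and lost without any other single library of saline or 12 h. Blnk, whose saline level was lower in hippocampus, was higher at 24 h in hippocampus (0.74) and at -0.23 without a call in cortex. The difference was 0.98 ± 0.22 (adjusted p = 0.0613), 0.98 without the 4 libraries (adjusted p = 0.062), and 0.98 with DESeq2, which called it (adjusted p = 0.0176). Across the 42 genes, the 6 h fold changes of the tissues had Pearson r = 0.87 and Spearman rho = 0.86. The values at 12 h were 0.77 and 0.72 (0.87 and 0.86 without the 4 libraries), and at 24 h 0.82 and 0.76 (0.84 and 0.79). These are descriptions across genes, which are not replicates, in tissues of mostly the same mice. The 4 cortex libraries were left out for how they matched hippocampus. Tissue comparisons without them are therefore not independent of that choice, and a closer match there is no separate evidence that the tissues agree. Both tissues called 10 genes higher at 6 h, namely Spi1, Irf8, Itgb2, Lyn, Pik3ap1, Lcp2, Vav1, Lcp1, Rac2 and Slco2b1.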

How the data were processed

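Poly(A) RNA was sequenced from stranded TruSeq libraries as 150-base read pairs, per the labels. The deposited values are whole-number counts per gene, with Ensembl identifiers. Reads were trimmed and aligned to GRCm38 (mm10) with Trim Galore 0.4.1 and STAR 2.6.0a, and FastQC and DESeq2 are also listed, per the submitters' processing notes. What counted the reads, with which strand setting and annotation, is not stated in the sources at hand. Reads of genes that overlap could therefore not be assigned with certainty: 13 members share exons with another annotated gene, Csf1r, Itgam and Coro1a among them. The submitters left out 1 hippocampal saline library for quality.

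From the counts, edgeR 4.0.16 (R 4.3.3) fitted each tissue (15 libraries) and both together (30) by quasi-likelihood with TMM scaling after a filter (count minimum 10, total minimum 15), leaving 17289, 17111 and 17650 genes; all 42 members passed it in each. Adjusted p-values are Benjamini-Hochberg over all genes, with a threshold of 0.05; printed fold changes are log2 with standard errors, and levels are CPM from the fit of both tissues, or CPM per kb of exon (GENCODE M21). Totals were 16826882 to 33034295 counts; a level of 1 CPM is thus 17 to 33 reads, and counting error is largest for the lowest members. The fit was tested on simulated data. Libraries of a group came from separate mice, and no pair differed by as little as counting noise (chi-square per gene at least 2.24).

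Per the labels' mouse codes, 14 of 16 mice gave both tissues. The tissue comparisons reported fitted group means without a block for the mouse, so both libraries of a mouse counted as separate. The deviations of a mouse's libraries correlated at 0.109 in the median pair (lowest -0.177, highest 0.411), with 7 of the 14 pairs over 0.1. In the 10 pairs outside the 4 cortex libraries the median was 0.0707, with 4 over 0.1. Alternatives were DESeq2 size factors, library totals, no filter or a stricter one, the DESeq2 test, fits of the groups compared alone, each library left out, the replicate block, and, added after the data were seen, leaving out 4 cortex libraries.

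Values of every library are printed for Csf1r, Itgam, Aif1, Spi1, Ptprc and Cd68 and for the member of each role group with the highest and the lowest change in a tissue, 15 in all. Members, role groups and the 13 marker lists were chosen with earlier results of these data known. The sum and counts of the oligodendrocyte list are not reported here.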

Additional observations from a re-analysis of the deposited data

Results flagged for a closer look

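In 96 groups of 4 libraries, 4 had a library whose gap to the next exceeded Dixon's 95% limit, as a share of the group's range; chance gives about 1 in 20 groups. In hippocampus at 24 h, library A276 stood high for Ptprc, at 6.61 CPM with the other libraries between 5.17 and 5.25. The same library stood low for Pik3ap1, at 3.41 CPM. At 12 h, hippocampal library A261 had 39.7 CPM of Laptm5 and stood apart from the other 3. The median change of the 42 genes was 0.97 (log2) in hippocampal library A278 at 24 h, and at least 0.81 in each of the other libraries of that time.

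The responses of the tissues differed by the interaction test for 1 gene, Cyth4 at 12 h, by -0.79 (log2, hippocampus minus frontal cortex). Without the 4 cortex libraries that resembled the other time it was -0.55 and was no longer called.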

How the results depend on the processing

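The 153 called values of single genes against saline were recomputed 2046 times over all alternatives: 1898 times they stayed called in the same direction, 148 times they were no longer called and 0 times they changed direction. Of the 153, 114 stayed called under every alternative, and 47 times a value that was not called became so. The count of members lower at 6 h in hippocampus was 2 without a filter on low counts. DESeq2 called 1 member lower at 12 h than at 6 h in hippocampus. Members higher at 12 h than at 6 h in cortex, 10 in the analysis reported, were 17 with library totals, 20 with DESeq2 and 0 without the 4 cortex libraries, and the step from 12 h to 24 h gave 2 without these. The tissue difference in response at 12 h gave 0 without the 4 libraries, and at 24 h it gave 1 higher without a filter (Blnk), 1 higher with DESeq2 (Blnk) and 1 lower with DESeq2 (Cyth4).

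Leaving out 1 library at a time gave, in hippocampus, 11 to 18 higher and 1 to 2 lower at 6 h, 23 to 29 higher at 12 h, 36 to 40 at 24 h, 4 to 7 from 6 h to 12 h and 6 to 9 from 12 h to 24 h. In cortex it gave 7 to 12 higher and 0 to 1 lower at 6 h, 21 to 28 higher at 12 h, 21 to 29 at 24 h and 5 to 17 from 6 h to 12 h. Between tissues after saline it gave 1 to 2 higher and 2 to 10 lower, and for the difference in response 0 to 1 lower at 12 h and 0 to 1 higher at 24 h. Leaving out hippocampal saline A226, in which 33 of the 42 genes lay above the saline mean, gave 18, 29 and 37 higher at 6, 12 and 24 h. The cause of these shifts was not tested.

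With the mouse as a replicate block, the paired fit kept 1 lower gene at 12 h as a random effect and gave 0 as a fixed effect, while voom without the block gave 0; after saline the block gave 1 higher and 3 lower (random) or 2 lower (fixed). It changed no other call count of the tissue comparisons. At this depth a member near 1 CPM rests on few reads, and with 3 saline libraries a high or low saline library weighs on every comparison.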

Other observations

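Other cell lists, chosen like those above, were read in hippocampus. Of the oligodendrocyte list, the myelin genes Mog (0.41), Mag (0.26) and Cnp (0.29) were higher at 24 h, and Mobp was lower at 12 h (-0.43) and 24 h (-0.42). The astrocyte water channel gene Aqp4 was higher by 0.21, 0.60 and 0.75 (log2) at 6, 12 and 24 h, as the only higher gene of 6 in its list, in which Gja1 was lower at 12 h (-0.24) and Aldh1l1 at 24 h (-0.57). Ighm, the immunoglobulin heavy chain, was lower at 6 h (-1.40) and 12 h (-1.19). The endothelial junction gene Cldn5 was lower at 6 h (-0.40) and 12 h (-0.40) and at 0.14 without a call at 24 h. Of the other 5 endothelial genes, Tek (-0.66) and Slco1a4 (-1.51) were lower at 12 h, and Pecam1 was higher at 12 h and 24 h (0.48 at both). The endothelial sum was 132.5 to 143 CPM at 6 h, 128 to 158 at 12 h and 165 to 178 at 24 h, against 149.9 to 159 CPM after saline. Of 9 neuronal genes edgeR called 0 at 6 h (1 at an unadjusted p under 0.05), 2 were lower at 12 h and 1 was lower at 24 h, and the 5 red blood cell genes had no call by edgeR, with 2 lower at an unadjusted p under 0.05 at 24 h. The 6 choroid plexus genes had no call either, with 3 lower at an unadjusted p under 0.05 at 24 h, and their sum ran from 46.4 to 2384 CPM over the hippocampal libraries.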
